A study of Homo sapiens with 16 samples.

Results

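Knockdown of the acetyltransferases p300 and CBP in senescent human fibroblasts was compared with a control siRNA by ATAC-seq, which marks open DNA by the places where a transposase can insert adapters. The comparison rests on 4 of the 16 libraries of the series, all single-end: replicates 1 and 2 of senescent control cells (Sen) and replicates 1 and 2 of senescent cells with siRNA against p300/CBP (sip300/CBP). Peaks of these 4 lists on chromosomes 1 to 22 that shared at least 1 bp were merged, which gave 97645 regions. A region with a peak in both Sen lists and in neither sip300/CBP list is called closed, the reverse opened, and a region in all 4 lists kept. IMR-90 is an established line of human lung fibroblasts, and the ER:Ras derivative carries an inducible oncogenic Ras protein. Both groups carried ER:Ras and received 100 nM 4-hydroxytamoxifen (4OHT) for 6 days, so the Sen libraries (siCtrl, 100 nM 4OHT) differ from the sip300/CBP libraries in the siRNA alone, as far as the labels say. The paired-end libraries of the series served as an independent reading: proliferating cells (Pro, 2 libraries), senescent control cells (4), and senescent cells with knockdown of FOXF1/2 (2) or of JUN-family members (2). Presence of a peak is also given for senescent cells with siRNA against p65 (sip65, 100 nM 4OHT for 6 days), whose 2 single-end lists held 43377 and 17707 peaks, so that the absence of a peak from the shorter one says little. The labels name the siRNA target as p300/CBP jointly, so the effects of p300 and of CBP cannot be told apart. They do not say that replicates were separate cultures, nor from which promoter ER:Ras was driven, and p-values therefore measure a spread that may be technical.

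p300 (EP300) and CBP (CREBBP) are closely related coactivators that transcription factors recruit to enhancers and promoters, where they acetylate histones H3 and H4 and many non-histone proteins. Acetylation of histone H3 at lysine 27 by p300 and CBP is a standard mark of active enhancers. NF-kB, AP-1 and C/EBP factors, which are known to drive the inflammatory secretions of senescent cells (the senescence-associated secretory phenotype, SASP), all use these coactivators.

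The 4 lists held 53719 and 66524 peaks in Sen and 69760 and 45808 in sip300/CBP, so the knockdown libraries were the longest and the shortest list. The mean was 60122 ± 9055 (SD, n = 2) in Sen and 57784 ± 16937 (SD, n = 2) in sip300/CBP, a ratio of 0.961 (two-sided exact permutation test, p = 1, where the smallest p that 2 against 2 libraries allow is 0.333). Read depth was shallow. The pileup of reads at the summit, recovered from the listed fold and p-value, had a median of 13 and 17 reads in Sen and 14 and 14 in sip300/CBP, and 70.3% to 89.8% of a list's peaks had 20 reads or fewer. The absence of a peak therefore means that it stayed under the listing threshold, not that the DNA was closed in every cell. In a bulk library, fewer cells with an open site and a lesser opening in each cell cannot be told apart. Among fibroblast marker promoters, only that of vimentin (VIM) had a peak in all 4 lists, while 9 of 10 had a peak in all 4 paired-end Sen lists. The promoters of the immune markers PTPRC and CD3E, the endothelial CDH5 and the hepatocyte ALB had none in either set. The promoter of the epithelial marker EPCAM had a peak in all 4 paired-end Sen lists and in none of the 4 single-end lists, and that of CDH1 in no list of either set. The promoters of EP300 and CREBBP, the knockdown targets, were listed in none of the 4 libraries, and of 14 regions in both Sen lists near the target genes 0 closed and 9 were kept. A peak list does not measure mRNA, so the degree of knockdown is not known here.

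Of the 44809 regions held by both Sen lists, 7805 closed (17.4%, 95% Wilson interval 17.1 to 17.8), 28975 were kept (64.7%) and the rest had a peak in 1 sip300/CBP list. Of the 40264 regions held by both sip300/CBP lists, 5235 had opened (13.0%, 12.7 to 13.3). Intervals on shares cover counting error over regions only. These shares are the background for the gene loci described next. Lists of the same group overlapped more than lists of different groups: the shared fraction of regions was 0.602 for the Sen pair, 0.543 for the sip300/CBP pair and 0.471 to 0.494 for the 4 pairs across groups.

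The locus of IL1B, which encodes the cytokine interleukin-1 beta, held a closed and an opened region within 3 kb of each other (coordinates in hg19). At the IL1B promoter, chr2:113594467-113594620, neither Sen list had a peak, and the sip300/CBP lists had summits of 7.90 and 8.48 fold over the local background. About 2.88 kb upstream of the start, at chr2:113596980-113597485, both Sen lists had a peak, of 8.13 and 7.44 fold, and neither sip300/CBP list did. A further region, 43.4 kb upstream, was closed as well, with 6.10 and 5.77 fold in Sen. Both the promoter and the 2.88 kb region had a peak in all 4 paired-end Sen lists, in neither Pro list, in both FOXF1/2 knockdown lists and in neither JUN-family knockdown list. The promoter was thus listed as open in the paired-end senescent control libraries, and its call as opened states only that it passed the listing threshold of the single-end libraries after p300/CBP knockdown. In the single-end p65 knockdown lists, which were compared with the same Sen libraries, neither IL1B region had a peak. Of 7 regions in both Sen lists around IL1B, 2 closed and 3 were kept. Around IL1A, its neighbour, 0 of 7 closed and 5 were kept.

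The sequences before the transcription start of IL1B and of 2 SASP genes whose promoters were kept, IL6 and CXCL2, are shown for their matches to known binding motifs; the 3 genes were chosen after their values were seen. Each runs 5′ to 3′ over the 250 bases before the start, from RefSeq (GRCh38.p14), with matches to any of 4 motifs in capitals: AP-1 (TGANTCA), the cyclic-AMP element (TGACGTCA), C/EBP (TTNNGNAA) and the NF-kB consensus, each searched on both strands.
IL1B: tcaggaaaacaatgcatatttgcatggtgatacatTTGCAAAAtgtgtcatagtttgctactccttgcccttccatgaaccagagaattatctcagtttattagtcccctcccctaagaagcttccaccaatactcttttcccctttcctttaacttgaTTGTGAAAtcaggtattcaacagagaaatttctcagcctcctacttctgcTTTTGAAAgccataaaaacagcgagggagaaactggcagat
IL6: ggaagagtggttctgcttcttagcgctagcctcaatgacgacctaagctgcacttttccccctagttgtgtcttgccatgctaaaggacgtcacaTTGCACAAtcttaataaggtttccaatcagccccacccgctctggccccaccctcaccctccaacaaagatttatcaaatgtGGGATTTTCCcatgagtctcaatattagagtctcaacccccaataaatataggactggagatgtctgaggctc
CXCL2: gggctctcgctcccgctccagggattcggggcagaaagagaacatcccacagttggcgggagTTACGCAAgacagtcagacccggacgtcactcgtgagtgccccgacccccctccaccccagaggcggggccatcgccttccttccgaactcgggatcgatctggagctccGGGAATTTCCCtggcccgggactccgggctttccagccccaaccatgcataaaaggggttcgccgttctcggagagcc

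On GRCh38.p14 these windows are chr2:112836780-112837029 (minus strand), chr7:22726950-22727199 (plus) and chr4:74099196-74099445 (minus). The IL1B window held 3 C/EBP matches, at bases -215 to -208, -91 to -84 and -41 to -34 before the start, and none of the other motifs. The IL6 window held a C/EBP match at -155 to -148 and an NF-kB match at -73 to -64. The CXCL2 window held a C/EBP match at -188 to -181 and 2 overlapping NF-kB matches on opposite strands, at -78 to -69 and -77 to -68. Of all 35116 promoter windows of this length, 33.2% held the C/EBP letters, 9.96% NF-kB, 6.57% AP-1 and 1.65% the cyclic-AMP element. The peaks are on hg19 and were not placed on these windows. The matches are descriptions of the sequence and were not measured as binding sites.

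Around the CXCL chemokine genes of chromosome 4, whose products attract neutrophils, 6 of 18 regions in both Sen lists closed (33.3%, interval 16.3 to 56.3, beside 17.4% of all such regions), 10 were kept and none opened. All 6 closed regions were distal, while the promoter regions of CXCL8, CXCL2 and CXCL3 were kept in all 4 lists. CXCL8, the gene of interleukin-8, lost a peak 10.8 kb upstream of its start (7.36 and 7.61 fold in Sen) and another 36.1 kb downstream of it (8.62 and 10.9). The region 7.58 kb upstream of CXCL5 had 10.3 and 9.49 fold in Sen, and that 24.0 kb upstream of CXCL2 had 7.20 and 9.49. Both were without a peak in the Pro lists, but the CXCL2 region had a peak in only 2 of the 4 paired-end Sen lists. The 2 closed CXCL8 regions had a peak in both Pro lists. At the CXCL8 promoter the summit was 7.06 and 7.45 fold in Sen and 9.86 and 10.2 in sip300/CBP. The difference on the log2 scale, 0.44 with a standard error of 0.22, did not pass the test across regions (limma, adjusted p = 0.482). The higher fold went with fewer summit reads (19 and 22 in Sen, 15 and 17 in sip300/CBP). Local background reads there were lower too, at 1.83 and 2.09 in Sen and 0.622 and 0.757 in sip300/CBP. Summit folds at the CXCL2 and CXCL3 promoters overlapped between the groups.

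The matrix metalloproteinase genes of chromosome 11 likewise lost distal regions and kept their promoters, on few regions. Of 10 regions in both Sen lists near MMP1, MMP3 and MMP10, 3 closed (30%). The interval, 10.8 to 60.3, includes the 17.4% of all such regions. All 3 were distal, a further 5 regions were kept and none opened. The promoters of these genes carried a peak in all 4 lists. The closed regions lay 1.88 kb upstream of MMP1 (5.97 and 6.67 fold in Sen), within 7.15 kb of the start of MMP3 on its downstream side (7.39 and 6.63) and 25.9 kb upstream of MMP3 (7.78 and 8.48). None of the 3 had a peak in the JUN-family knockdown lists, and both FOXF1/2 knockdown lists held the first and the second. MMP1 encodes interstitial collagenase, and its promoter summit was 5.66 and 6.62 fold in Sen and 10.1 and 8.21 in sip300/CBP. The log2 difference of 0.54 (SE 0.21) gave an adjusted p of 0.345 (limma). The higher fold went with fewer summit reads (18 and 25 in Sen, 16 and 13 in sip300/CBP). Local background reads there were lower too, at 2.36 and 2.93 against 0.681 and 0.705. The MMP3 promoter went the other way, with 9.80 and 10.7 fold in Sen and 9.24 and 6.96 in sip300/CBP (log2 difference -0.39, limma adjusted p = 0.548). Summit folds at the MMP10 promoter overlapped between the groups.

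The IL6-family loci kept most of their regions. Of 16 regions in both Sen lists near IL6, LIF and IL11, 1 closed (interval 1.11 to 28.3%), 50.0 kb from the start of LIF, and 14 were kept. Within 100 kb 2 of 25 closed and 19 were kept (76%), beside 64.7% of all such regions. The IL6 promoter had 5.10 and 5.26 fold in Sen and 7.15 and 6.78 in sip300/CBP. The difference did not pass the test across regions (log2 difference 0.39, SE 0.20, limma adjusted p = 0.499). Its summit reads overlapped between groups, at 13 and 18 in Sen and 17 and 13 in sip300/CBP. Local background reads there were 1.74 and 2.61 in Sen and 1.52 and 1.07 in sip300/CBP. Near the chemokine genes CCL2, CCL7 and CCL8, 1 of 5 regions closed (9.21 and 13.1 fold in Sen, 20.8 kb downstream of the CCL2 start) and a region 0.956 kb upstream of CCL2 opened, at 6.27 and 6.56 fold. The CCL2 promoter itself was listed in none of the 4 libraries.

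Among the 101 genes in the locus lists, 37 promoters had a peak in all 4 lists, 3 closed and 2 opened. Starts are positions entered by hand for hg19, and the length entered for INHBA was 6187 bp shorter than in RefSeq GRCh38.p14, so its start in particular was not checked. The closed promoters were those of INHBA, FOXF1 and CEBPB, and the opened ones those of IL1B and IER3. INHBA encodes the subunit of activin A, a ligand of the TGF-beta superfamily, and its promoter region had 8.33 and 6.89 fold in Sen and no peak in either sip300/CBP list. INHBA also lost a peak 30.1 kb upstream, of 6.84 and 9.40 fold. FOXF1, a forkhead factor of lung mesenchyme, had 5.36 and 4.44 fold at its promoter in Sen. The region overlapping the short CEBPB gene, 316 bp past the start, had 5.74 and 4.63 fold. CEBPB encodes C/EBP-beta, a driver of SASP genes, and 2 distal regions 34.3 and 37.1 kb downstream closed with it (6.99 and 7.42 fold, and 6.83 and 6.75). At the promoter of the immediate early gene IER3 the sip300/CBP lists had 5.04 and 4.45 fold. The FOXF1, CEBPB and IER3 summits were low beside the list medians of 8.26 to 8.58 fold. All 5 promoters had a peak in all 4 paired-end Sen lists, and those of INHBA, FOXF1, CEBPB and IER3 also in both Pro lists.

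**Figure D1:**
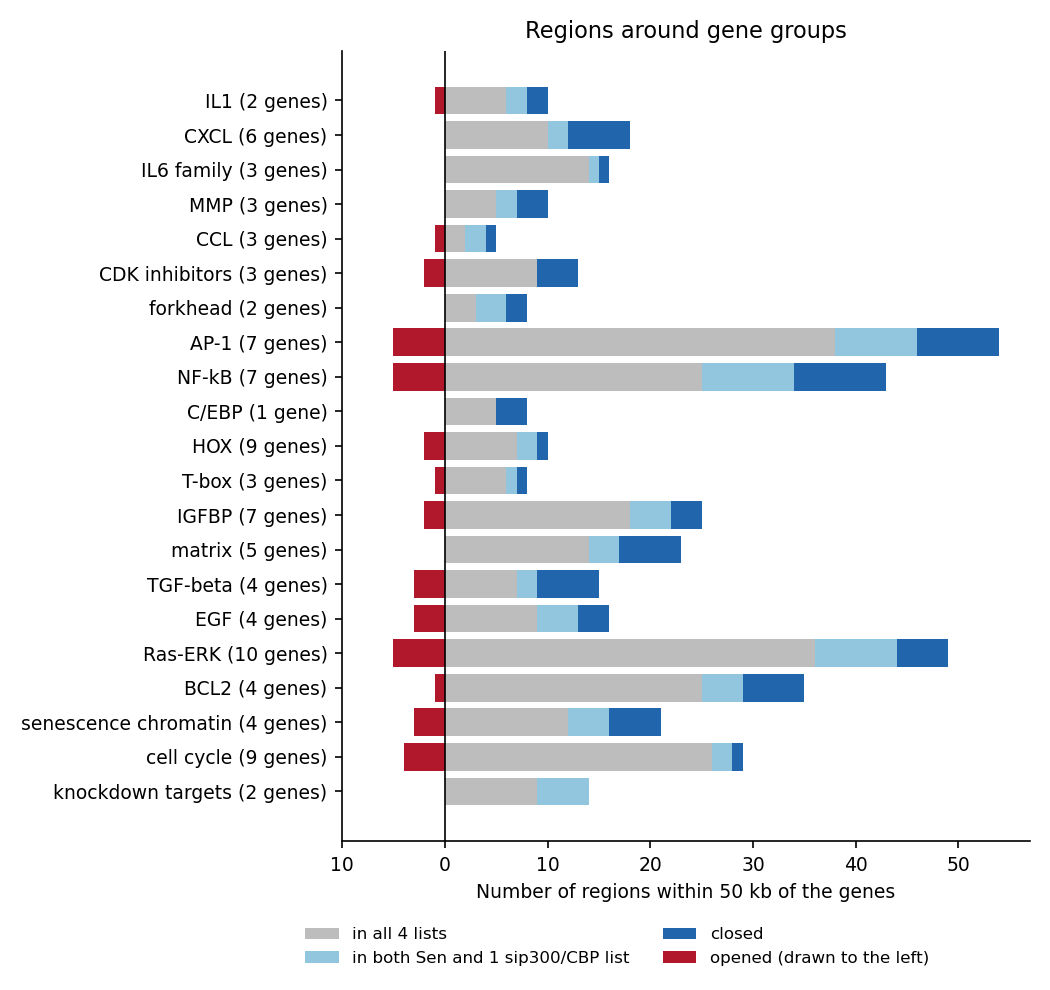
Regions within 50 kb of the genes of 21 locus groups (vertical axis); bars to the right give the number of regions in both Sen lists, split into those kept in all 4 lists, those with a peak in 1 sip300/CBP list and those closed, and bars to the left give the number opened. The cell cycle and IL6-family bars are almost wholly kept, whereas 6 of the 18 CXCL regions and 6 of the 15 TGF-beta regions are closed.

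Over all 101 genes, 77 of 451 regions in both Sen lists closed (17.1%, 13.9 to 20.8), which is the background share, and 43 of 394 opened (10.9%). The listed loci as a whole were thus no more often closed than other regions. Distal regions made up nearly all of the closed ones, with 74 of 405 (18.3%) against 3 of 46 promoter regions (6.52%). Local background reads were higher at promoters than elsewhere, with medians of 1.32, 2.11, 1.59 and 1.28 reads at the promoter peaks of Sen 1, Sen 2, sip300/CBP 1 and 2 and 0.596, 1.06, 0.598 and 0.636 over all regions, and their part in this contrast was not tested. Of the 36 promoters with no peak in any of the 4 lists, 18 had a peak in all 4 paired-end Sen lists, so no peak in the 4 lists does not show that a promoter was closed.

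Groups with a high share of closed regions were small, and their shares moved with the span around the genes. The TGF-beta ligand loci lost 6 of 15 regions (interval 19.8 to 64.3%), of which GDF15, a stress-induced secreted factor, held 3, but 7 of 30 (23.3%) within 100 kb. The CDK inhibitor loci lost 4 of 13, but 0 of 5 within 20 kb and 4 of 17 within 100 kb. The matrix genes (3 collagens, fibronectin and LOX, a collagen cross-linking enzyme) lost 6 of 23 (26.1%, 12.5 to 46.5), or 18.2% at equal strength, of which 3 of 6 were at FN1, the fibronectin gene. The EGF-family loci lost 3 of 16, which is close to the background (8 of 27 within 100 kb). All 3 lay among the 6 regions of AREG (amphiregulin). They lay 34.6 kb upstream of the start (7.90 and 6.77 fold), 29.4 kb downstream (7.25 and 9.07) and 58.7 kb downstream (6.37 and 7.47). HBEGF, another ligand of the EGF receptor, lost 0 of 8 regions and had 2 opened ones, and TGFA had 1 opened region. Among the CDK inhibitors, CDKN2A and CDKN2B, neighbours that encode the p16 and p15 brakes on CDK4 and CDK6, had closed regions upstream of CDKN2B at chr9:22030180-22030452 and chr9:22040907-22041048 (6.91 and 6.80 fold, and 10.6 and 7.88) and an opened region within the CDKN2B promoter window (5.97 and 7.54 fold). The main CDKN2B promoter peak was kept, at 10.1 and 11.9 fold in Sen and 9.38 and 11.5 in sip300/CBP.

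Loci of transcription factor genes differed in the share closed, on few regions each. Of 43 regions around 7 NF-kB genes, 9 closed (20.9%, or 14.6% at equal strength), among them 3 of 6 at NFKB2, and 5 of 34 opened. The promoters of RELA, RELB, NFKB2, TNFAIP3 and BIRC3 were kept. Of 54 regions around 7 AP-1 genes, 8 closed (14.8%, or 7.25% at equal strength), 4 of them among the 9 at JUN, whose promoter stayed at 6.82 and 6.90 fold in Sen and 6.84 and 7.73 in sip300/CBP. Around FOS, 3 of the 6 regions in both sip300/CBP lists had opened, at 9.88 and 7.93, 5.76 and 7.72, and 6.12 and 6.58 fold. Of all such regions 13.0% had opened. All 3 had a peak in all 4 paired-end Sen lists, whereas the 1 closed FOS region had a peak in no paired-end list. FOXF2 lost a region 7.25 kb downstream of its start, of 9.53 and 10.6 fold in Sen. The forkhead loci together lost 2 of 8 regions (25%; 2 of 4 within 20 kb and 3 of 19 within 100 kb) and the CEBPB locus 3 of 8. The HOX loci lost 1 of 10, the T-box loci 1 of 8, and the loci of the IGF-binding proteins, secreted carriers of insulin-like growth factors, 3 of 25 (12%; 0 of 17 within 20 kb).

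Of all regions in both Sen lists 64.7% were kept and 17.4% closed. Cell cycle loci kept 89.7% of such regions within 50 kb and 78% within 100 kb. Ras-ERK loci kept 73.5% and 66.3%, the latter near the share over all regions. Around 9 cell cycle genes, 1 of 29 regions in both Sen lists closed (3.45%, interval 0.611 to 17.2), at MCM2, a subunit of the replicative helicase, and 26 were kept. All 7 cell cycle promoters held by both Sen lists were kept, among them CCNB1 (cyclin B1; 14.5 and 15.3 fold in Sen, 14.9 and 9.97 in sip300/CBP) and CDK1 (11.9 and 16.1 against 12.0 and 10.8). Near PCNA, the DNA polymerase clamp, 3 regions opened. Around 10 Ras-ERK feedback and target genes, 5 of 49 closed (10.2%, 4.44 to 21.8; 4 of 22 within 20 kb), of which 3 of 5 were at DUSP5, a nuclear ERK phosphatase. DUSP6, a cytoplasmic ERK phosphatase, kept all 4 of its regions, with a promoter of 6.35 and 6.63 fold in Sen and 7.44 and 9.56 in sip300/CBP. Around 4 survival genes 6 of 35 regions closed (17.1%, interval 8.10 to 32.7), near the 17.4% of all such regions. MCL1 kept all 12 of its regions, BCL2L1 lost 2 of 10 and BCL2 1 of 6. BCL2A1, an NF-kB target, lost 3 of 7 and kept its promoter. Its closed regions had 11.4 and 9.45, 8.62 and 7.76, and 7.96 and 6.90 fold in Sen. LMNB1, the nuclear lamin that falls in senescence, lost 2 of 6 regions and HMGA1, an architectural chromatin protein, 2 of 9.

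None of the 303 kept regions at these loci passed the test for a changed summit strength. Of all 28975 kept regions 25 passed (0.0863%), so the absence of a call among 303 says little. The median log2 change of the 303 was -0.01, beside -0.002 over all kept regions, on whose medians the lists were centred.

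Across the genome, weak regions closed and opened most. Strength was the lower of the 2 summits of the group that held the region. When Sen regions were split by strength into 10 bins, 31.7% closed in the weakest bin (3.47 to 6.18 fold) and 2.16% in the strongest (11.1 to 41.6 fold). Opened regions ran from 23.3% of the weakest bin of sip300/CBP regions to 1.47% of the strongest. Closed regions had a median strength of 7.20 fold against 8.63 for kept regions, and opened ones 7.38. They were also narrower: the median merged width was 175 bp for closed, 148 bp for opened and 247 bp for kept regions, although a region merged from 4 lists tends to be wider than one from 2. By the mean peak width in the Sen lists alone, 35.3% of the narrowest of 10 bins closed and 2.97% of the widest, or 29.4% and 4.44% when each bin was weighted to the same strengths.

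**Figure D2:**
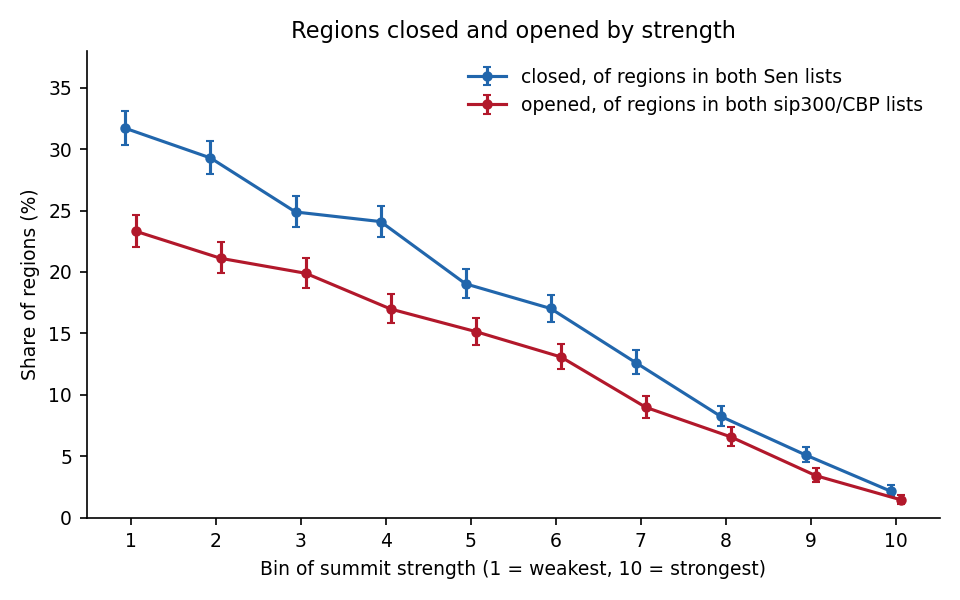
Share of regions closed (of those in both Sen lists) and opened (of those in both sip300/CBP lists) in 10 bins of summit strength; bars are 95% Wilson intervals. Both curves fall throughout, from 31.7% and 23.3% in the weakest bin to 2.16% and 1.47% in the strongest.

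The strongest closed region lay at chr13:100136767-100137005, with 15.2 and 15.9 fold and 19 and 25 reads in the Sen lists. It was followed by chr7:134310330-134310602 (14.7 and 14.8 fold), chr6:156171507-156171733 (14.5 and 13.9) and chr8:108377700-108377911 (13.8 and 13.6). The remaining 4 of the 8 strongest lay at chr1:227231550-227231705, chr15:80165083-80165353, chr20:31981434-31981747 and chr13:24353085-24353323, with 12.9 to 14.4 fold. All 8 had a peak in all 4 paired-end Sen lists, and 5 had none in the Pro lists. The leading region on chromosome 13 and those on chromosomes 7 and 15 were held by both JUN-family knockdown lists and by both p65 knockdown lists, while the chromosome 6 region was held by none of these 4. The chromosome 8 region was also absent from both FOXF1/2 knockdown lists.

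The 8 strongest opened regions reached 13.3 to 16.4 fold in the sip300/CBP lists. They were led by chr15:83437517-83437686 (16.4 and 15.1 fold, 24 and 23 reads), chr14:39911556-39911860 (16.3 and 14.2), chr8:21285790-21286003 (14.1 and 15.0) and chr7:43145211-43145419 (14.2 and 14.0). None of the 8 was held by all 4 paired-end Sen lists, 5 were held by none of them, and none by a p65 list. The definition of the classes favours this difference, since opened regions lack a peak in both single-end Sen lists and closed regions have one in both.

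The classes as a whole differed in the same direction, which their definition favours likewise. Of the 5235 opened regions, 47.2% (45.8 to 48.5) had no peak in any paired-end Sen list, against 5.33% (4.85 to 5.85) of the closed and 2.31% of the kept regions. In 32.0% of opened regions no paired-end list of any group had a peak, against 3.45% of closed ones. Regions held by a single sip300/CBP list and no Sen list were much like the opened ones, with 46.2% (replicate 1) and 45.7% (replicate 2) in no paired-end Sen list. For regions held by Sen replicate 1 alone it was 1098 of 4393, and for replicate 2 alone 1267 of 11305 (11.2%). Only 345 opened regions (6.59%) were of the kind that opened in senescence, as defined next.

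Regions that had opened on entry into senescence (a peak in all 4 paired-end Sen lists and in neither Pro list) closed more often than regions shared with proliferating cells (all 4 Sen and both Pro lists). Of 6239 such regions in both single-end Sen lists 33.7% closed (32.6 to 34.9), and of 30906 shared regions 11.7% (11.3 to 12.0), a ratio of 2.89. Weighted to the same strengths the shares were 31.7% and 12.5%. Each sip300/CBP library showed the order alone, with 39.0% against 14.1% absent from replicate 1 and 50.2% against 24.9% from replicate 2. Replicates of a group showed it too, to a smaller degree: regions of a list absent from the other list of its group gave ratios of 1.61 and 2.32 in Sen and of 1.43 and 2.59 in sip300/CBP. Of all closed regions, 2104 (27.0%) were of the senescence-opened class, beside 13.9% of all regions in both Sen lists, and 3724 (47.7%) had a peak in both Pro lists.

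Regions without a peak after knockdown of FOXF1/2, forkhead factors of lung fibroblasts, closed in most cases. Of 832 regions absent from both FOXF1/2 knockdown lists but present in all 4 paired-end Sen lists, 537 closed under p300/CBP knockdown (64.5%, 61.2 to 67.7; 59.4% at equal strength), against 14.0% of 37629 regions kept under FOXF1/2 knockdown. Replicates 1 and 2 of sip300/CBP lacked 67.7% and 75.6% of them. For JUN-family knockdown the shares were 34.7% (33.6 to 35.9) of 6277 closed regions and 11.1% of 30345 kept ones, or 32.1% and 11.9% at equal strength. Senescence-opened regions absent after both knockdowns closed in 64.8% of 492 cases (60.5 to 68.9), and those held after both in 22.1% of 1161 (19.8 to 24.6). The paired-end classes share their Sen controls and overlap each other, while none of their libraries is among the 4 compared here.

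**Figure D3:**
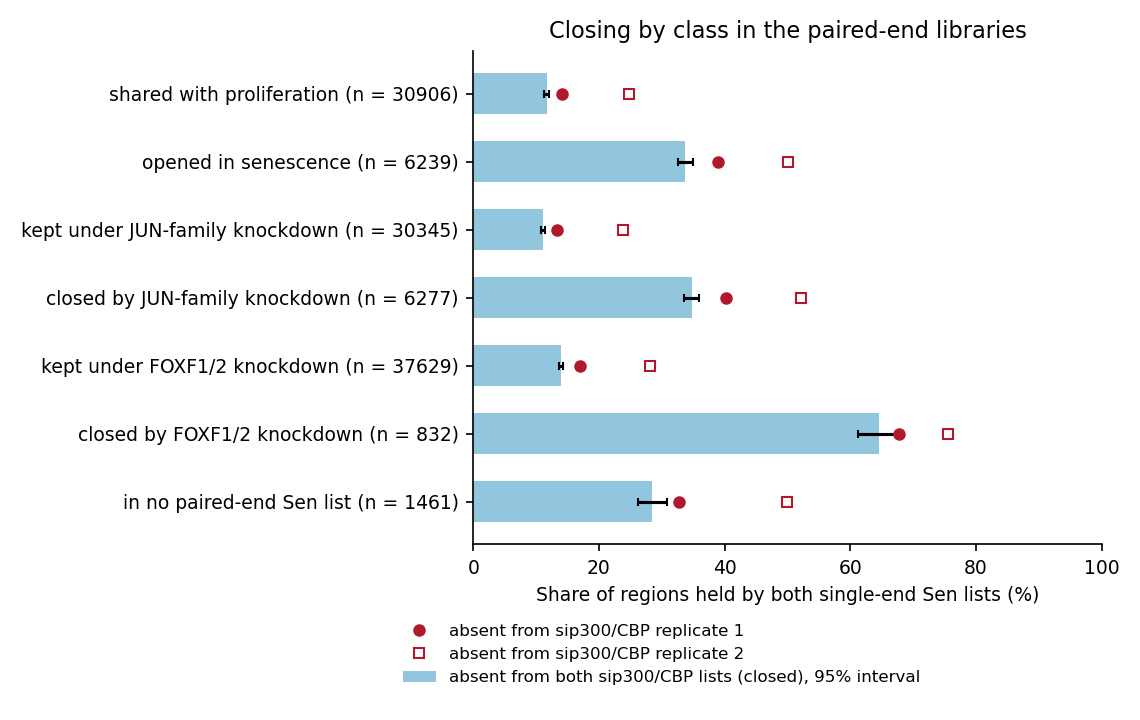
Share of regions in both single-end Sen lists that closed (bars, with 95% Wilson intervals) or were absent from sip300/CBP replicate 1 (filled circles) or 2 (open squares), by the region's class in the paired-end libraries. Regions closed by FOXF1/2 knockdown lie at 64.5%, senescence-opened regions at 33.7% and shared regions at 11.7%.

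Closing varied between chromosomes and was lowest on the gene-dense ones. Chromosome 19 lost 115 of 1576 regions (7.30%, 6.11 to 8.69), chromosome 22 lost 11.6% (9.65 to 13.9), chromosome 16 13.1% and chromosome 17 13.5%. The highest shares were those of chromosomes 4 (461 of 2141, 21.5%, 19.8 to 23.3), 13 (236 of 1126) and 18 (20.1%). At equal strength chromosomes 19, 13 and 18 had 7.40%, 21.3% and 20.5%. Across the 22 autosomes the share closed had a rank correlation of -0.85 with the number of protein-coding genes per Mb in RefSeq (-0.84 and -0.83 for absence from each sip300/CBP library), given as a description, since the points share all 4 libraries. The share opened had a rank correlation of -0.004, with 9.93% on chromosome 19 and 12.6% on chromosome 4. Opened regions outnumbered closed ones on chromosomes 17, 19 and 22, by 1.02, 1.39 and 1.18 to 1, and were fewer on the other 19.

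The difference between chromosomes 4 and 19 was present in both senescence-opened and shared regions. Among senescence-opened regions 17.3% (11.7 to 24.8) closed on chromosome 19 and 40.9% (35.9 to 46.2) on chromosome 4, and among shared regions 4.93% (3.87 to 6.26) and 14.1% (12.4 to 16.1). Losses between replicates of a group varied less by chromosome: the ratio of chromosome 4 to chromosome 19 was 1.34 and 1.57 in Sen and 1.25 and 1.39 in sip300/CBP, against 2.95 between the groups. The rank correlation with gene density was also negative for these losses between replicates, at -0.48 and -0.59 in Sen and -0.50 and -0.72 in sip300/CBP, beside -0.85 between the groups.

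**Figure D4:**
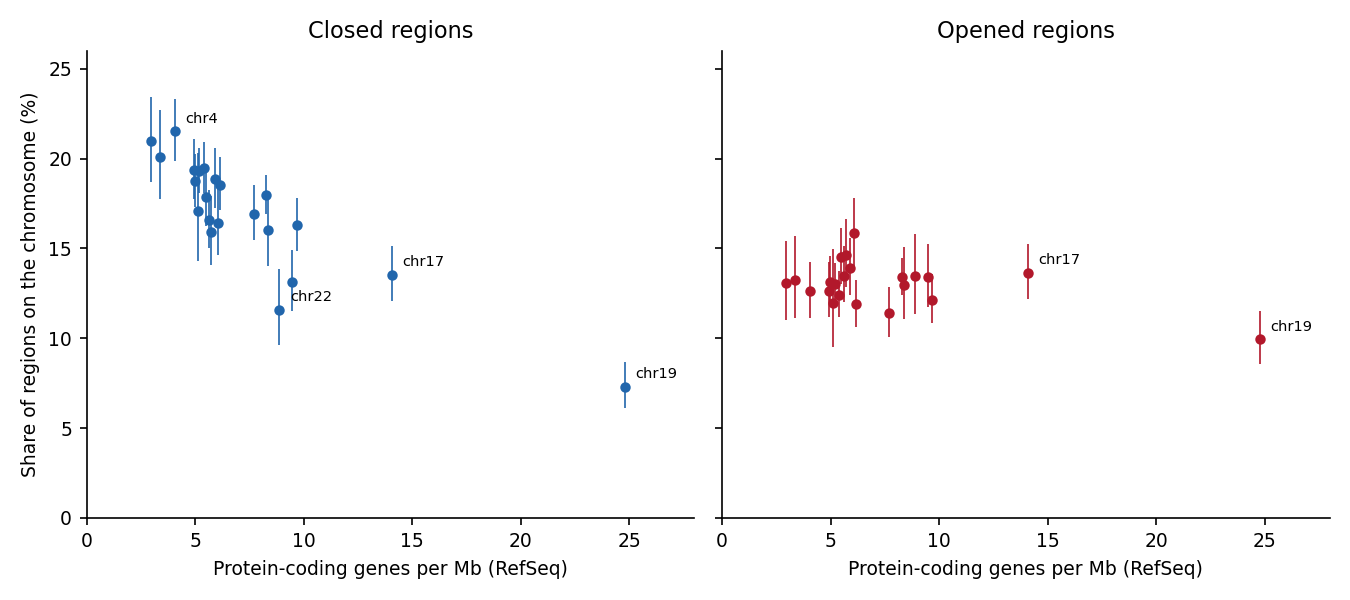
Share of regions closed (left) and opened (right) on each of 22 autosomes against the protein-coding genes per Mb; bars are 95% Wilson intervals. The closed share falls from 21.5% on chromosome 4 to 7.30% on the gene-dense chromosome 19, while the opened share lies between 9.93% and 15.8%.

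Closed regions were only weakly grouped along the chromosomes. When regions in both Sen lists were stitched across gaps of up to 10 kb, 17.2% of 24209 single regions closed and 15.9% of 1311 regions in clusters of 5 or more, or 18.7% and 13.1% at equal strength. A region closed in 102 of 430 cases (23.7%) when its next neighbour, at most 1 kb away, had closed, and in 356 of 2216 (16.1%, 14.6 to 17.7) when it had not. For neighbours 1 to 10 kb away the shares were 18.5% and 17.6%, and for those 10 to 100 kb away 20.7% and 16.4%. Beyond 100 kb they were 21.5% and 17.6%, so the difference was not limited to near neighbours. Most closed regions, 4962, had no closed neighbour next in order along the chromosome, and the longest runs held 9.

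The cluster with most closed regions lay at chr7:137223169-137239322, where 4 of 5 regions closed and none was kept. Clusters of 3 regions that all closed lay at chr1:15733796-15744238, chr18:54190177-54206244, chr4:75382121-75388711 and chr6:80873484-80875797. The runs of 9 closed regions without another Sen region between them spanned 290 kb at chr6:74710418-74999941 and 1025 kb at chr18:66430415-67455639. A run of 8 lay at chr1:187295795-187650300. None of the listed genes lay within 50 kb of these clusters and runs.

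Few of the 28975 kept regions passed the test for a changed summit strength. Each list was centred on its median over these same regions, so a general shift in strength could not be seen. The median changes given below are relative to that centre. Kept regions also have a peak in every list, which leaves out those that fell below the listing threshold. The small number of calls therefore does not show that strength was unchanged. With limma and Benjamini-Hochberg adjustment, 25 regions (0.0863%) passed the threshold of 0.05, 13 weaker (0.0449%) and 12 stronger (0.0414%) in sip300/CBP, and 2997 had an unadjusted p under 0.05. The median log2 change was 0.01 in senescence-opened regions (n = 2782), -0.01 in shared regions (n = 22472) and 0.05 in those that FOXF1/2 knockdown closed (n = 177). Kept regions in no paired-end Sen list had 0.17 (n = 670), with 0.19 and 0.15 for the single sip300/CBP libraries, each set against the same Sen mean. That class lacks a peak in other Sen libraries by definition, which favours a rise over Sen.

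The largest fall was at chr2:216629461-216629753, with 13.7 and 13.2 fold in Sen and 5.54 and 5.84 in sip300/CBP (21, 25, 6 and 7 reads), a log2 change of -1.28 (SE 0.22, limma adjusted p = 0.00590). It was the only one of the 12 regions named here that passed the threshold whichever library was left out. At chr12:88994100-88994358 the values were 13.7 and 17.1 against 7.12 and 6.18 fold (-1.24, adjusted p = 0.00590). Regions at chr6:105159280-105159571, chr21:22537669-22537883, chr3:150762523-150762820 and chr13:47811828-47811995 fell by 1.06 to 1.15 on the log2 scale. All 6 kept a peak in both FOXF1/2 knockdown lists.

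The largest rise was at chr9:133321855-133322183, with 6.05 and 5.06 fold in Sen and 11.8 and 13.3 in sip300/CBP (10, 11, 28 and 29 reads), a log2 change of 1.15 (SE 0.22, limma adjusted p = 0.0148). At chr21:47542095-47542398 the values were 6.09 and 4.95 against 13.5 and 11.5 fold, and at chr1:183063169-183063417 they were 6.08 and 5.53 against 13.1 and 12.5. Regions at chr3:189542402-189542603, chr5:169998517-169998751 and chr16:85733234-85733498 rose by 1.04 to 1.06. All 6 were held by the 4 paired-end Sen lists. Those 4 lists held 7 of all 12 stronger regions and 12 of the 13 weaker ones. Of all 13 weaker regions 5 had no peak in Pro and 8 had a peak in both Pro lists, and of the 12 stronger regions 5 and 6. Without centring of the libraries no region passed, although 2459 then had an unadjusted p under 0.05.

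**Figure D5:**
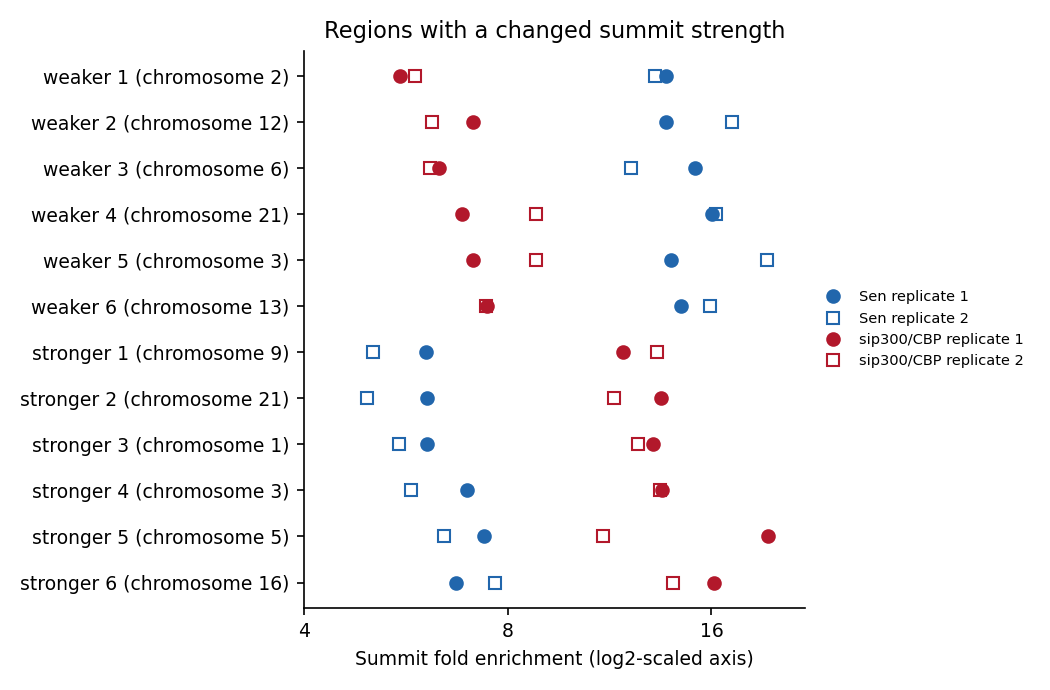
Summit fold enrichment (log2-scaled axis) in each of the 4 libraries at the 6 regions with the largest fall and the 6 with the largest rise among those past the threshold. In each region both sip300/CBP values lie on the same side of both Sen values, and the chromosome 2 region falls from 13.7 and 13.2 to 5.54 and 5.84 fold.

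The median peak width was 150 and 160 bp in the Sen lists and 142 and 140 bp in the sip300/CBP lists, a ratio of 0.910 (two-sided exact permutation test, p = 0.333, the smallest the design allows). At kept regions the medians were 183 and 211 bp in Sen and 194 and 165 bp in sip300/CBP, which overlap. Both sip300/CBP peaks were narrower than both Sen peaks at 8164 kept regions (28.2%) and wider at 3459 (11.9%). After each list was centred on its median width the counts were 5616 and 7133, so the excess of narrower regions did not remain. Among the strongest of 10 bins of kept regions, the largest narrowing was at chr20:47599991-47600406, from 337 and 416 bp to 114 and 112 bp, while its summit was 11.3 and 11.8 fold in Sen and 15.0 and 13.1 in sip300/CBP. At chr5:114679562-114679953 the peak went from 353 and 392 bp to 137 and 121 bp, and at chr17:48367383-48367933 from 355 and 501 bp to 189 and 169 bp. The largest widening was at chr4:159131398-159131784, from 171 and 156 bp to 387 and 308 bp. At chr14:91287434-91287629 the peak went from 89 and 114 bp to 196 and 177 bp, and at chr8:37619945-37620378 from 192 and 207 bp to 355 and 382 bp.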

How the data were processed

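The 4 libraries compared here were sequenced with single reads of 75 bp, and the paired-end ones with pairs of 35 bp, as stated in the labels. The submitters' processing notes name the human build hg19 and the tools MACS2 2.1.1, deepTools 3.1.1, Bowtie2 2.3.4.1 and SAMtools 1.9, without an order. How reads were shifted and which caller options were set is not given in the sources used here. The authors deposited 1 peak list per library, so replicates were not pooled. For every peak the deposited lists hold the authors' fold (a ratio of summit reads to local background), −log10 p, −log10 q, a score, which was not used, and the summit's place. The lowest deposited −log10 q was 4.00 to 4.04, so weaker peaks are not listed.

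Peaks sharing at least 1 bp were merged with Python 3.11.15. Each summit's pileup was the whole number of reads that, under a Poisson model with a pseudocount of 1 in the fold, gave both the listed fold and p-value, within 0.002 in −log10 p, for 100% of peaks. Log2 summit fold, centred on the median of each list over regions held by all 4 lists, was tested with limma 3.58.1 (variance trend on, Benjamini-Hochberg, threshold 0.05), after a test on simulated data. Shares "at equal strength" weight 10 bins of strength alike. Loci span 50 kb beside a gene, and promoters 500 bp beside a start. Gene positions were entered by hand for hg19 from general knowledge, since no hg19 annotation was used, and checked against RefSeq GRCh38.p14: 113 of 113 genes lay on the same chromosome, and 101 had a length within 1000 bp, the largest difference being 6187 bp. Named regions are the 8 strongest closed and opened, the 6 largest falls and rises past the threshold, the 5 clusters with most closed regions, and the 3 largest width changes each way; the runs of closed regions were chosen after their values were seen. The comparison, gene lists and rules were chosen with earlier results of these data known. Alternatives were stricter or equally long lists, other overlaps, scalings, gaps and flanks, a replicate block and leaving out each library. A locus group with an item that is not reported here was counted in the totals over all listed genes, and no values are given for it.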

Additional observations from a re-analysis of the deposited data

How the results depend on the processing

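The counts of closed and opened regions depend on the lists. With peaks of −log10 q of at least 10 they were 4342 and 3185 (7805 and 5235 with all peaks), and leaving out 1 library gave 9200 to 19199 closed and 6883 to 20866 opened, where fewer lists have to meet or lack a peak. With lists of equal length (45808 peaks) they were 5801 and 5261. Senescence-opened and shared regions were absent from sip300/CBP replicate 1 alone in 39.0% and 14.1% and from replicate 2 alone in 50.2% and 24.9%. Alternatives chosen after seeing the data gave 36.0% and 13.3% closed at −log10 q of at least 10, and 34.3% and 12.4% with lists of equal length. Chromosomes 4 and 19 then had 22.3% and 7.18%, and 23.3% and 7.23%. Clusters of 5 or more regions stitched within 5 kb closed in 24.5% of 53 regions, above the 17.2% of single regions, whereas within 10 kb they lay below it (15.9%). The 25 regions of changed strength became 11 with quantile normalization, 0 without centring and 6 of 14487 above the median strength; the cause was not tested. Without a variance trend in limma, also chosen after seeing the data, 12 passed, all among the 25. Leaving out a library gave 20 to 88, with the most without sip300/CBP replicate 2, where the lone library is assumed to vary like the rest. With a replicate block the count was 109, all 25 among them. Deviations of same-numbered libraries had a correlation of -0.0093 over 2 pairs, so the numbers were not taken as pairs. No log2 change of a named region changed sign. Kept regions whose widths did not overlap between groups were more often narrower (8164 against 3459), and after centring, chosen after seeing the data, more often wider (7133 against 5616). Without sip300/CBP replicate 2 opened regions (20866) outnumbered closed ones (9200). Of the 12 named regions 8 lost the threshold without Sen replicate 2, 4 without Sen replicate 1 or without sip300/CBP replicate 1, and 2 without sip300/CBP replicate 2. The lists start at a −log10 q of 4.00 to 4.04, and how far depth limits them was not tested.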
